A study of Mus musculus with 15 samples.

Results

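The interleukin-1 (IL-1) and interleukin-18 (IL-18) axis was followed through its 10 genes *Il1a*, *Il1b*, *Il18*, *Il1rn*, *Il1r1*, *Il1r2*, *Il18r1*, *Il18rap*, *Nlrp3* and *Casp1*. They were found by gene symbol among the 56748 genes of the deposited count table, and each symbol matched 1 gene. The RNA came from whole kidneys and whole lungs of male wild-type C57Bl/6 mice in a study of a leptin-neutralizing antibody (LepAb) in organ fibrosis. In the kidney, 3 mice received vehicle (WTK), 3 received folic acid once (200 mg/kg) and then control IgG (IgGK), and 3 received the same dose and then LepAb (LepK). Those mice were 10 to 12 weeks old when injected and were euthanized at day 28, after antibody injections had ended. In the lung, 3 mice received bleomycin at 1.5 units/kg and control IgG (IgGL) and 3 received bleomycin and LepAb (LepL), at 12 weeks of age and with euthanasia at day 14. The antibodies were given at 10 mg/kg every other day. No vehicle lung was analysed here, so the lung compares the antibodies alone. Folic acid crystals injure the kidney tubule and bleomycin injures the alveolus, and each injury is followed by inflammation and scarring. Each of these chemical injuries models fibrosis after an acute insult in a single inbred strain.

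IL-1α and IL-1β are cytokines that share the signalling receptor IL1R1, while IL1RN is a secreted antagonist that occupies the same receptor and IL1R2 is a decoy receptor that binds the ligand without signalling. IL-18 is bound by IL18R1 and signals once IL18RAP joins the complex. IL-1β and IL-18 are made as inactive precursors, which the protease caspase-1 cleaves after sensors such as NLRP3 assemble an inflammasome, so that transcript levels alone do not report how much active cytokine was released.

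The genes lie in a few places of the mouse genome (GRCm39, the build named in the submitters' processing notes, with gene positions as the deposited table gives them). *Il1r2*, *Il1r1*, *Il18r1* and *Il18rap* sit on the plus strand of chromosome 1 within 477.627 kb, together with *Il1rl2* and *Il1rl1*, which encode the receptors of the IL-36 cytokines and of IL-33, and the table lists no other coding gene between these 6. *Il1a* and *Il1b* lie next to each other on the minus strand of chromosome 2, with 54.597 kb between them. *Il1rn* lies elsewhere on chromosome 2, beside the genes of the IL-36 family. *Il18* and *Casp1* lie on chromosome 9 and *Nlrp3* on chromosome 11. The libraries did not keep the strand, so reads of *Il1b* cannot be told apart from those of the antisense transcript *Il1bos*, nor reads of *Il18* from those of the overlapping genes *Bco2* and *Tex12*, nor those of *Il1a*, *Il1r1* and *Il1r2* from the noncoding genes that overlap them.

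Start-site windows were read for all 10 genes from RefSeq (GRCm38.p6, 250 bases before to 50 after each start, 16 windows in all because several genes have more than 1 start). Leptin's receptor signals through STAT3 and IL-1 receptors through NF-κB, and both strands of each window were searched for the STAT motif TTCNNNGAA and for the NF-κB consensus. The STAT motif was present in 2 of the 16 windows, belonging to *Il1r2* and *Il18r1*, against 8.3% of 32851 windows of the same length over all genes. The NF-κB consensus was present in 2 of the 16, belonging to *Il1r1* and *Nlrp3*, against 8.46% of all windows. A match describes the letters of the window and not a bound site. Windows are shown for 3 of the genes with a motif, each being the window that holds it, and the *Il1r1* window with its NF-κB match is not printed. Further windows of *Il18r1* and *Nlrp3* held neither motif and are not printed. *Il1r2* had the lowest fitted LepK against IgGK value of the 10. *Il18r1* was called for a difference of the antibody effect between the organs, a call kept in 2 of 12 fits without 1 library. *Nlrp3* was called in both organs, a call kept in 3 of 6 such fits in kidney and 1 of 6 in lung. *Il1b*, *Il1rn*, *Il18rap* and *Casp1*, whose windows held neither motif, were also called lower in LepK than in IgGK. Any link between a motif and the antibody comparisons was not tested. Capitals mark the STAT motif in *Il1r2* (starting at -111 from the start site) and *Il18r1* (at -219 and -152), and the NF-κB consensus in *Nlrp3* (at -186).
Il1r2, chr1:40085843-40086142, plus strand: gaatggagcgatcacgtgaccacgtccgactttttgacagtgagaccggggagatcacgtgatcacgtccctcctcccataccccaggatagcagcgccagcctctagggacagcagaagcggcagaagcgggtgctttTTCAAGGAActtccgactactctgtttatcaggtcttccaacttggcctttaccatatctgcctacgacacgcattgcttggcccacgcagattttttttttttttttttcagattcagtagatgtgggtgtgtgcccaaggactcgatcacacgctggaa
Il18r1, chr1:40465756-40466055, plus strand: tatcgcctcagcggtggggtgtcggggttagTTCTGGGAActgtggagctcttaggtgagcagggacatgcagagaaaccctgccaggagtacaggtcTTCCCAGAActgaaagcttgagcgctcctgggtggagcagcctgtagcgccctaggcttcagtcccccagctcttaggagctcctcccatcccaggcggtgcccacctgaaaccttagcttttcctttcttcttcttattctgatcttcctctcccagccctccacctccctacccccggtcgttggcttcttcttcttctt
Nlrp3, chr11:59541319-59541618, plus strand: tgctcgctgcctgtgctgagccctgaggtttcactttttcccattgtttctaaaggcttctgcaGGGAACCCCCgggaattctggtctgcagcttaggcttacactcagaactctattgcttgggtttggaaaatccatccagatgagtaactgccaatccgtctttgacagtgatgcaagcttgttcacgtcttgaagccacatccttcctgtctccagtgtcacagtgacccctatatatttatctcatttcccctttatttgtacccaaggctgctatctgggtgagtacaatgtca

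Library totals ranged from 25913969 to 38924788 counts, so that 1 count was 0.0257 to 0.0386 CPM (counts scaled to a common library size). Levels below are CPM after scaling by trimmed mean of M values (TMM) within an organ, and differences are log2 fold changes with their standard error from edgeR. A gene is called at a Benjamini-Hochberg adjusted p under 0.05 and an absolute log2 fold change over 0.5. The organs matched their labels: the summed CPM of 10 proximal tubule markers was 12376 to 52241 in kidney and at most 1011 in lung. For 8 alveolar type 2 markers the sum was 1259 to 2706 CPM in kidney and 7442 to 26153 CPM in lung. Of these 8, the surfactant gene *Sftpa1* was at 0 in all kidney groups, while *Sftpc* had counts in IgGK. IgGK replicates 1 and 2 stood apart, since their 6 adrenal cortex markers summed to 635 and 814 CPM. The same sum was 17.4 CPM in IgGK replicate 3, 6.32 to 7.32 CPM in WTK and 5.87 to 8.09 CPM in LepK, and the counts of called genes in LepK against IgGK are therefore also given with replicate 3 as the lone IgGK library. In lung, IgGL replicate 3 held a neutrophil marker sum of 646 CPM, against 259 and 285 CPM in the other IgGL libraries.

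In uninjured kidney the axis was low apart from *Il18*. Per kilobase of gene length, *Il18* led the 10 genes of WTK at 3.48 ± 0.162 FPKM (SD, n = 3), followed by *Il1r1* at 0.938 ± 0.0939 FPKM, and these neighbours did not overlap. *Il1rn*, *Il1a* and *Il1r2* were lowest, between 0.0244 and 0.0375 FPKM, and did not differ beyond their spread. After folic acid and control IgG that order was replaced, and the 6 highest genes lay close together. *Il1r1* (3.06 ± 0.332 FPKM), *Il1b* (2.83 ± 0.405), *Il18r1* (2.51 ± 0.186), *Il18* (2.10 ± 0.396), *Casp1* (2.04 ± 0.426) and *Il1rn* (1.85 ± 0.146) followed each other with overlapping ranges, and the other 4 genes lay below them at 0.919 to 0.320 FPKM.

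Folic acid injury raised 9 of the 10 genes and lowered *Il18*. All 10 were called in IgGK against WTK, where 37.3% of the 19593 genes tested were called (21.7% higher and 15.6% lower). The median log2 fold change of the 10 was 2.60, beside 0.04 over all genes tested. In each of the 10 the IgGK and WTK libraries did not overlap, as was so for 62.6% of all genes. At an unadjusted p under 0.05 the count was also 10, against 58.0% of all genes.

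Among the ligands, *Il1b*, the gene of IL-1β, was measured at 0.955, 1.70 and 0.721 CPM in the WTK libraries, 5.84, 7.74 and 6.53 CPM in IgGK and 2.01, 1.81 and 3.51 CPM in LepK. Every LepK library therefore lay between the WTK and the IgGK libraries. It rose by 2.58 ± 0.35 (log2, SE) after injury (adjusted p = 4.1e-05) and was lower by -1.46 ± 0.32 in LepK against IgGK (adjusted p = 0.00744). LepK remained above WTK by 1.12 ± 0.35 (adjusted p = 0.0232), a call that was lost without LepK replicate 3 (0.77), WTK replicate 1 (1.02) or WTK replicate 3 (0.87).

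*Il1a*, which encodes the IL-1 form that dying cells can release without cleavage, was scarce in kidney. Its raw counts were 1, 3 and 1 in WTK, 13, 28 and 39 in IgGK and 17, 9 and 12 in LepK. It rose by 3.52 ± 0.69 in IgGK against WTK (adjusted p = 0.000883), a size that rests on 5 WTK counts in all. The IgGK and LepK libraries overlapped, and their difference of -0.85 ± 0.54 was not called (adjusted p = 0.311).

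*Il18* moved apart from the other genes. It stood at 4.57, 4.30 and 4.15 CPM in WTK, 2.51, 2.29 and 3.27 CPM in IgGK and 2.47, 2.51 and 1.70 CPM in LepK. Both injured groups lay below all WTK libraries and overlapped each other. The fall was -0.69 ± 0.24 in IgGK (adjusted p = 0.0274) and -0.96 ± 0.24 in LepK (adjusted p = 0.0076), and LepK against IgGK gave -0.27 ± 0.24 (adjusted p = 0.488). The IgGK call was lost when any one IgGK or WTK library other than IgGK replicate 3 was left out (adjusted p = 0.0501 to 0.0991, with values of -0.58 to -0.72), with no filter (-0.68, adjusted p = 0.0632), with IgGK replicate 3 alone (-0.41) and with total count scaling (-0.25). Tubule epithelium is a known source of IL-18. All 10 proximal tubule markers were called lower in IgGK against WTK (median -1.58), and 9 of them in LepK against WTK (median -0.95). In LepK against IgGK 8 of the 10 were called higher (median 0.74), while *Il18* was not called there. The part of these markers in the *Il18* values was not tested. In a whole organ, fewer cells of a type and less RNA per cell cannot be told apart.

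The antagonist *Il1rn* had the highest fitted rise of the 10. It had 3, 1 and 9 counts in the WTK libraries, while its level was 11.6, 12.7 and 13.7 CPM in IgGK and 4.18, 4.89 and 6.79 CPM in LepK. The rise was 6.21 ± 0.38 (adjusted p = 9.9e-08), from 13 WTK counts in all. In LepK it differed from IgGK by -1.26 ± 0.26 (adjusted p = 0.00474), and it stayed 4.94 ± 0.39 above WTK (adjusted p = 3.67e-06).

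The FPKM ratio of *Il1rn* to *Il1b* sets the antagonist against the ligand within a library and needs no scaling between libraries. It was 0.0449, 0.00801 and 0.155 in WTK, 0.687, 0.566 and 0.724 in IgGK, and 0.717, 0.932 and 0.667 in LepK. WTK lay below both injured groups (exact permutation test, two-sided, p = 0.1 for each, the smallest that 3 against 3 allows), while IgGK and LepK overlapped (exact p = 0.5). In LepK the antagonist and the ligand were thus both lower than in IgGK, with no change in their ratio that exceeded the spread.

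**Figure D1:**
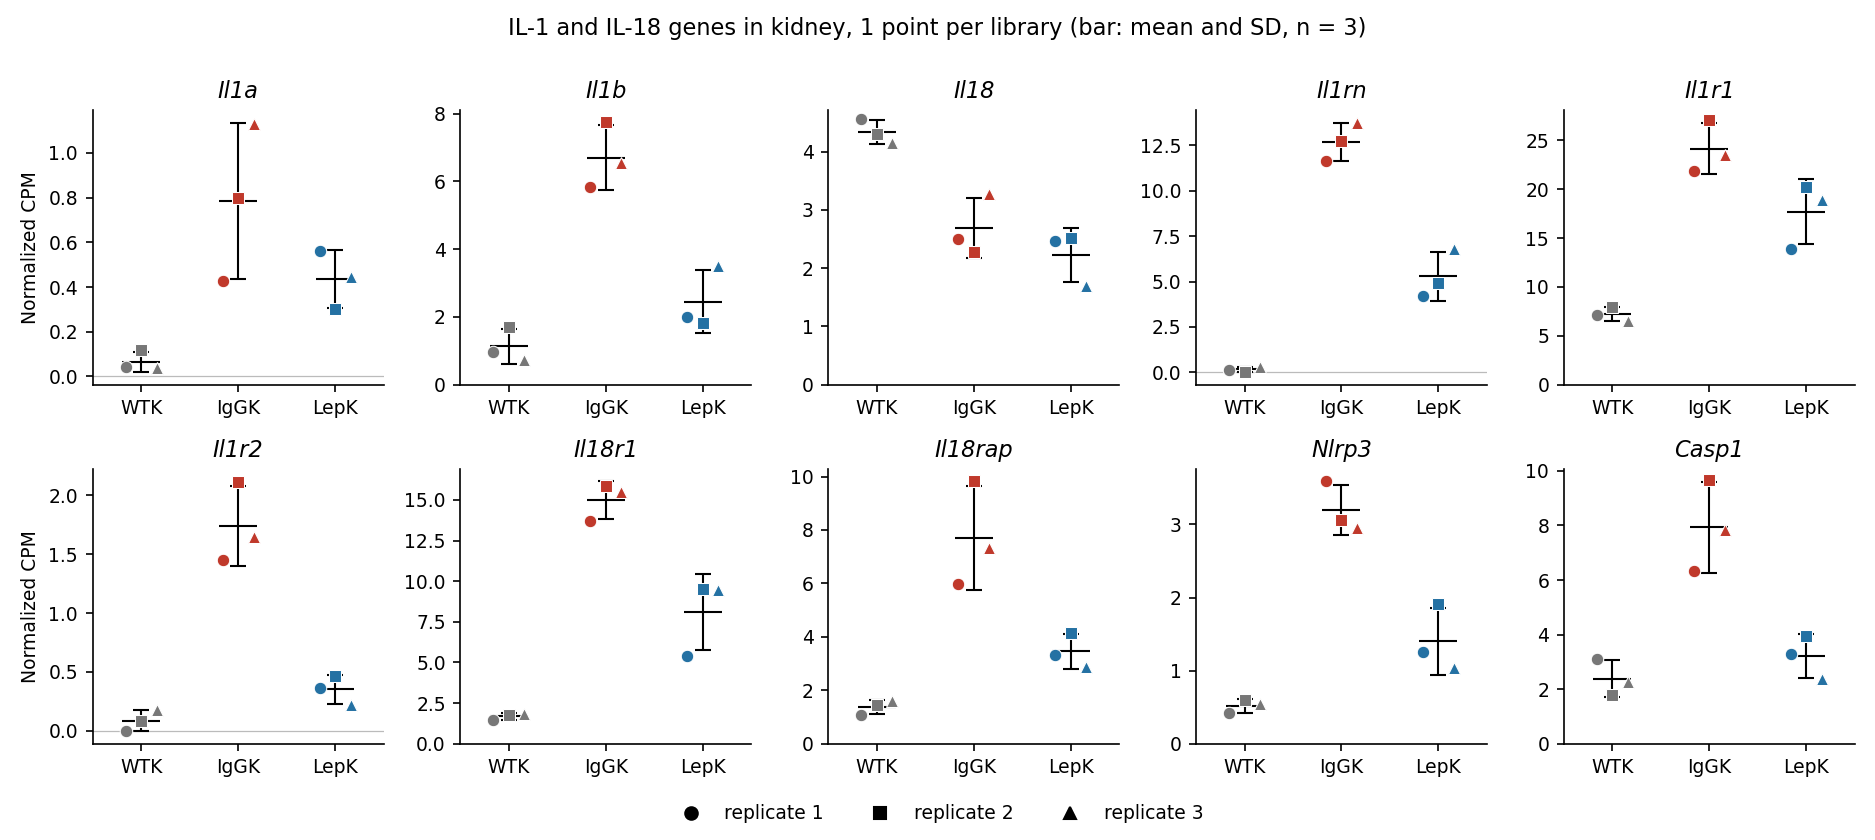
Normalized CPM of the 10 genes in kidney (linear axis that includes 0, 1 panel per gene), with 1 point per library and the mean and SD of 3 libraries per group. In 9 panels IgGK lies above WTK, *Il18* runs the other way, and 8 panels show LepK apart from IgGK (all but *Il1a* and *Il18*).

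Of the receptor chains, the signalling chain *Il1r1* had the smallest rise with injury. It was at 7.14, 7.98 and 6.53 CPM in WTK, 21.9, 27.1 and 23.5 CPM in IgGK and 13.9, 20.3 and 18.9 CPM in LepK. It rose by 1.74 ± 0.15 (adjusted p = 9.77e-07). The LepK libraries lay below all IgGK libraries, but the difference of -0.45 ± 0.14 (adjusted p = 0.0385) was under the fold threshold and was not called.

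The decoy *Il1r2* had 0, 2 and 5 counts in WTK, 44, 74 and 57 in IgGK and 11, 14 and 6 in LepK. Its rise of 4.22 ± 0.67 (adjusted p = 0.000162) rests on 7 WTK counts. It was lower in LepK than in IgGK by -2.29 ± 0.56 (adjusted p = 0.0124), and this call was lost without IgGK replicate 2 (-2.12, adjusted p = 0.0577). The FPKM ratio of the decoy to the signalling receptor was 0.221, 0.261 and 0.234 in IgGK and 0.0867, 0.0772 and 0.0392 in LepK, which did not overlap (exact permutation p = 0.1, the smallest possible). In WTK it was 0, 0.033 and 0.0921.

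For the IL-18 receptor, *Il18r1* (the binding chain) rose from 1.45, 1.78 and 1.84 CPM in WTK to 13.7, 15.8 and 15.5 CPM in IgGK, and stood at 5.40, 9.49 and 9.45 CPM in LepK. *Il18rap* (the accessory chain) rose from 1.08, 1.46 and 1.59 CPM to 5.97, 9.83 and 7.31 CPM, with 3.32, 4.16 and 2.88 CPM in LepK. The log2 rises were 3.14 ± 0.23 and 2.48 ± 0.26 (adjusted p = 2.76e-07 and 5.5e-06). Both chains were lower in LepK than in IgGK, by -0.89 ± 0.20 and -1.16 ± 0.24 (adjusted p = 0.0079 and 0.0056). The receptor chains thus rose in the kidneys in which their ligand *Il18* was lower.

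*Nlrp3*, the inflammasome sensor, was measured at 0.415, 0.592 and 0.541 CPM in WTK, 3.59, 3.06 and 2.95 CPM in IgGK and 1.25, 1.91 and 1.03 CPM in LepK. *Casp1*, the protease, was at 3.12, 1.78 and 2.27 CPM, 6.33, 9.66 and 7.83 CPM, and 3.29, 3.96 and 2.36 CPM in the same groups. Both rose after injury, by 2.62 ± 0.34 and 1.74 ± 0.27 (adjusted p = 2.91e-05 and 0.000133). In LepK against IgGK they were lower by -1.19 ± 0.31 and -1.31 ± 0.26 (adjusted p = 0.0165 and 0.00435). The *Nlrp3* call was lost without IgGK replicate 1, LepK replicate 1 or LepK replicate 3 (-1.01 to -1.11, adjusted p = 0.0596 to 0.0621). *Casp1* in LepK overlapped WTK (0.43 ± 0.27, adjusted p = 0.241).

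The LepAb comparison in kidney therefore called 7 of the 10 genes, all lower in LepK than in IgGK: *Il1b*, *Il1rn*, *Il1r2*, *Il18r1*, *Il18rap*, *Nlrp3* and *Casp1*. Over all genes tested 10.4% were called, 4.38% higher and 5.99% lower. The groups did not overlap in 8 of the 10, against 37.4% of all genes, and 8 had an unadjusted p under 0.05, against 32.9% of all genes. All 10 fitted values were below 0, with a median of -1.17 (-0.01 over all genes). With IgGK replicate 3 as the lone IgGK library, edgeR called 0 of the 10 and 3.13% of all genes, and 7 of the 10 had an unadjusted p under 0.05. The fitted values of the 7 genes called in the main fit moved little, for example -1.41 for *Il1b*, -1.37 for *Il1rn* and -1.28 for *Casp1*. Of the others, *Il1a* moved from -0.85 to -1.36, *Il18* from -0.27 to -0.54 and *Il1r1* from -0.45 to -0.40. This fit assumes that the lone library varies like those of the other groups.

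Against WTK, LepK held 7 of the 10 genes higher and *Il18* lower, with *Casp1* and *Il1r2* (1.93 ± 0.72, adjusted p = 0.0505) not called. Of all genes 22.5% were called in this comparison (15.2% higher and 7.3% lower). The groups were apart in 9 of the 10, against 50.2% of all genes, and 9 had an unadjusted p under 0.05 (46.8% of all genes). The LepK and IgGK comparisons share libraries, so these values stand side by side and are not independent of one another.

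**Figure D2:**
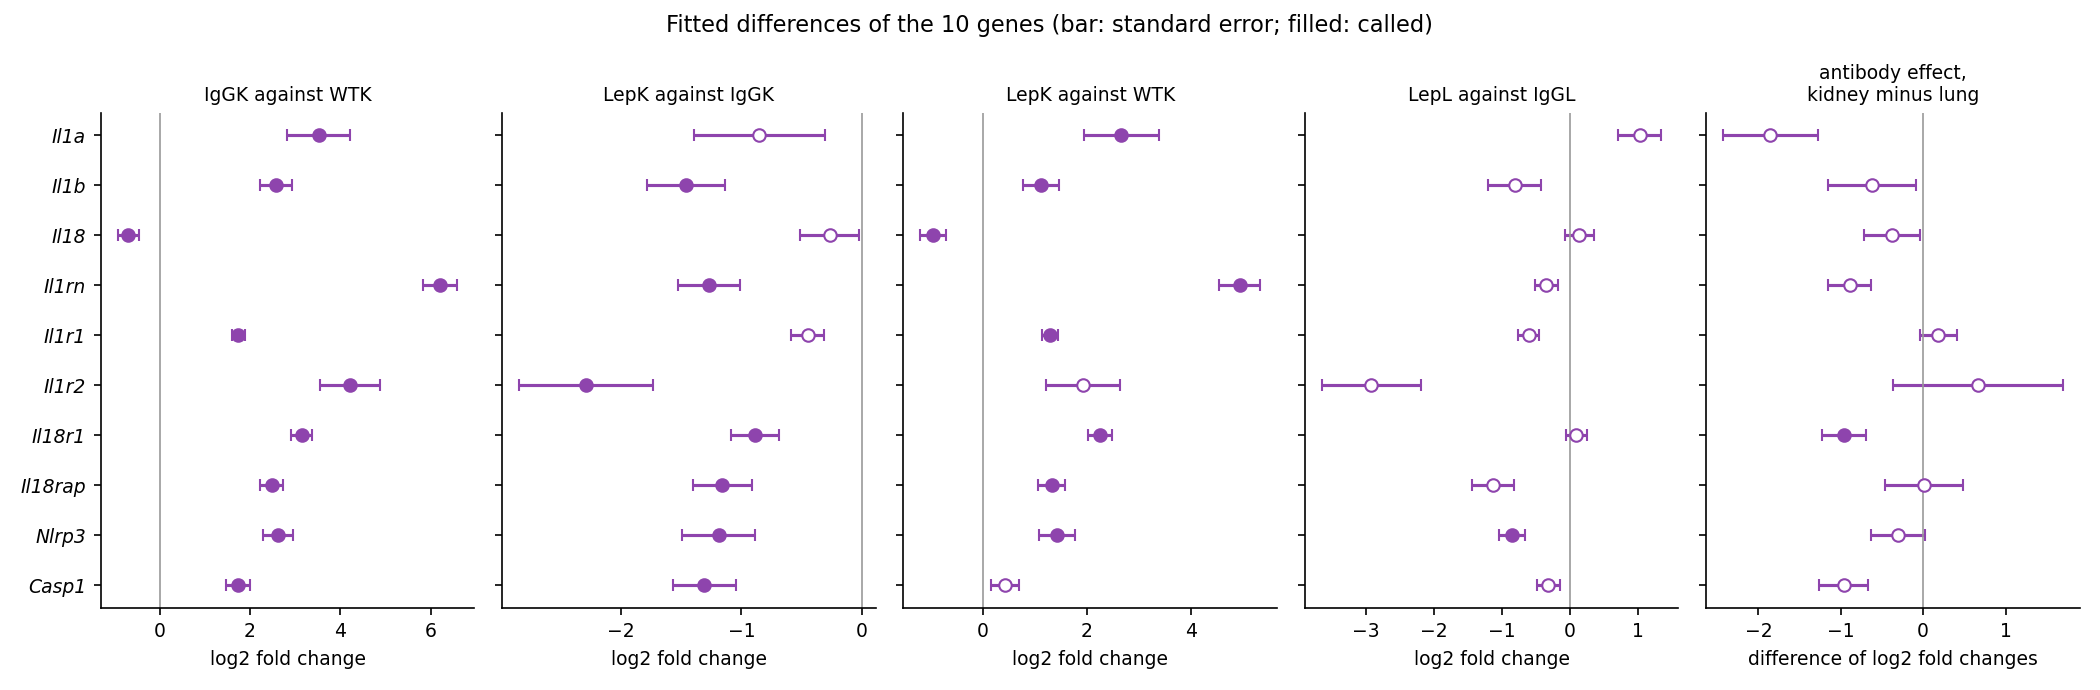
Fitted log2 fold change of each gene (points) with its standard error (bars) in the 4 comparisons, and in the last panel the kidney antibody effect less the lung one. Filled points were called, and each panel has its own horizontal scale. The kidney injury values lie right of 0 for all genes but *Il18*, the LepK against IgGK values lie left of 0 for all 10, and in lung *Nlrp3* is the filled point.

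Several marker lists moved the same way as these genes in kidney. All 12 macrophage markers were called higher in IgGK than in WTK and 11 of them lower in LepK than in IgGK, and their summed level was 214 to 243 CPM in WTK, 1934 to 2446 CPM in IgGK and 685 to 1029 CPM in LepK, with no marker at 0. The sum of the 12 neutrophil markers was 3.40 to 3.99 CPM, 22.3 to 31.3 CPM and 10.5 to 13.1 CPM in the same order, with *Ly6g* and *Camp* at 0 in WTK and IgGK. For 12 T and NK cell markers it was 12.1 to 16.5 CPM, 44.6 to 79.7 CPM and 36.7 to 47.6 CPM, with 8 called higher in IgGK than in WTK and 1 lower in LepK than in IgGK. Of 6 B cell markers 1 was called, higher in IgGK than in WTK. All 8 fibroblast markers were called higher in IgGK (sums of 185 to 246 CPM in WTK and 1418 to 1610 CPM in IgGK) and 7 of them lower in LepK (509 to 841 CPM), and so were 6 and 5 of the 6 injured tubule markers. The part of these cells in the levels of the 10 genes was not tested. In IgGK replicate 3, whose adrenal sum was 17.4 CPM, each of the 10 genes lay above every LepK library. For *Il1a* and *Il18* the IgGK and LepK groups nevertheless overlapped. A single library lies apart from a group more readily than 3 libraries do, and the share of all genes was not counted. The part of adrenal cells in these levels was not tested either.

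**Figure D3:**
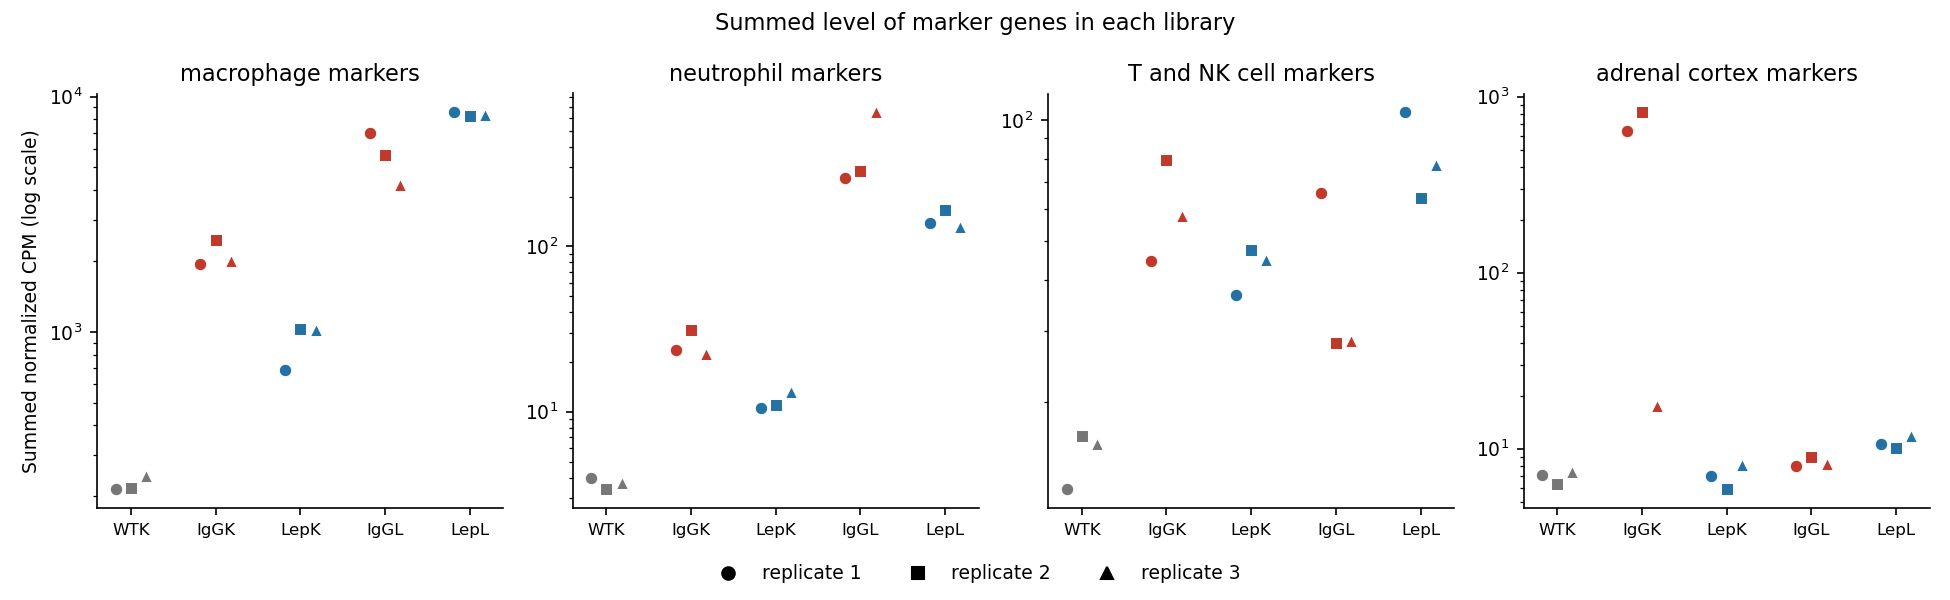
Summed normalized CPM (log axis) of 12 macrophage, 12 neutrophil, 12 T and NK cell and 6 adrenal cortex markers, with 1 point per library in the 5 groups. The leukocyte sums are lowest in WTK, and IgGK replicates 1 and 2 stand alone in adrenal cortex markers at 635 and 814 CPM.

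In bleomycin-injured lung the order of the genes differed from that in kidney, with *Il18r1* leading at 17.2 ± 3.12 FPKM in IgGL and 18.8 ± 2.88 FPKM in LepL, and *Il1r1* next at 14.6 ± 2.69 and 9.83 ± 1.12 FPKM. *Il18* reached 6.01 ± 1.41 and 6.77 ± 0.962 FPKM. In LepL the lowest were *Il1r2*, *Il18rap* and *Nlrp3* at 1.34, 1.18 and 1.01 FPKM, each of which overlapped the next. No test was made between organs on these levels.

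In LepL against IgGL 1 of the 10 genes was called, where 4.14% of 19617 genes were called (1.78% higher and 2.36% lower). At an unadjusted p under 0.05 the count was 5, against 27.3% of all genes. That gene was *Nlrp3*, at 9.92, 10.2 and 11.7 CPM in IgGL and 6.86, 5.02 and 5.74 CPM in LepL. The groups did not overlap, and the difference was -0.85 ± 0.19 (adjusted p = 0.0454). Without any single library other than IgGL replicate 1 the call was lost (adjusted p = 0.0683 to 0.204), but those 5 fits called 0 to 22 genes in all and the size of the *Nlrp3* difference stayed at -0.75 to -0.98. It was also lost with total count or upper-quartile scaling (-0.81 in each).

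In 6 more genes the groups also did not overlap but the adjusted p missed the threshold, so that groups were apart in 7 of the 10, against 33.3% of all genes. *Il1r2* was at 6.45, 13.5 and 63.6 CPM in IgGL and 2.97, 3.77 and 4.23 CPM in LepL, a difference of -2.92 ± 0.73 (adjusted p = 0.0561) whose size depended on IgGL replicate 3, without which it was -1.45. *Il18rap* was at 14.6, 21.2 and 39.2 CPM against 10.9, 12.3 and 11.01 CPM (-1.13 ± 0.31, adjusted p = 0.0678), and its size was -0.65 without IgGL replicate 3. *Il1r1* was at 105, 148 and 155 CPM against 101, 81.7 and 85.6 CPM (-0.61 ± 0.16, adjusted p = 0.0597). *Il1a* lay the other way, at 3.07, 2.50 and 1.40 CPM in IgGL and 4.02, 5.52 and 4.74 CPM in LepL (1.03 ± 0.32, adjusted p = 0.0875). These 4 and *Nlrp3* were called without IgGL replicate 1, a fit that called 17.3% of all genes. *Il1rn* was at 43.8, 36.3 and 36.9 CPM in IgGL and 34.8, 34.4 and 22.9 CPM in LepL (-0.35 ± 0.17, adjusted p = 0.225), and *Casp1* gave -0.31 ± 0.16 (adjusted p = 0.252), with IgGL and LepL close to each other in both.

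In the other 3 genes the lung groups overlapped. *Il1b* was at 20.3, 12.02 and 40.6 CPM in IgGL and 13.1, 17.8 and 10.6 CPM in LepL, a difference of -0.81 ± 0.39 (adjusted p = 0.216) that was -0.23 without IgGL replicate 3. *Il18* and *Il18r1* were at 0.14 ± 0.21 and 0.10 ± 0.16 (adjusted p = 0.713 and 0.729). The *Il1rn* to *Il1b* ratio was 0.313 to 1.04 in IgGL and 0.664 to 0.915 in LepL (exact permutation p = 0.8). The decoy to signalling receptor ratio was 0.205, 0.304 and 1.37 in IgGL and 0.0986, 0.154 and 0.165 in LepL, which did not overlap (exact permutation p = 0.1, the smallest possible).

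**Figure D4:**
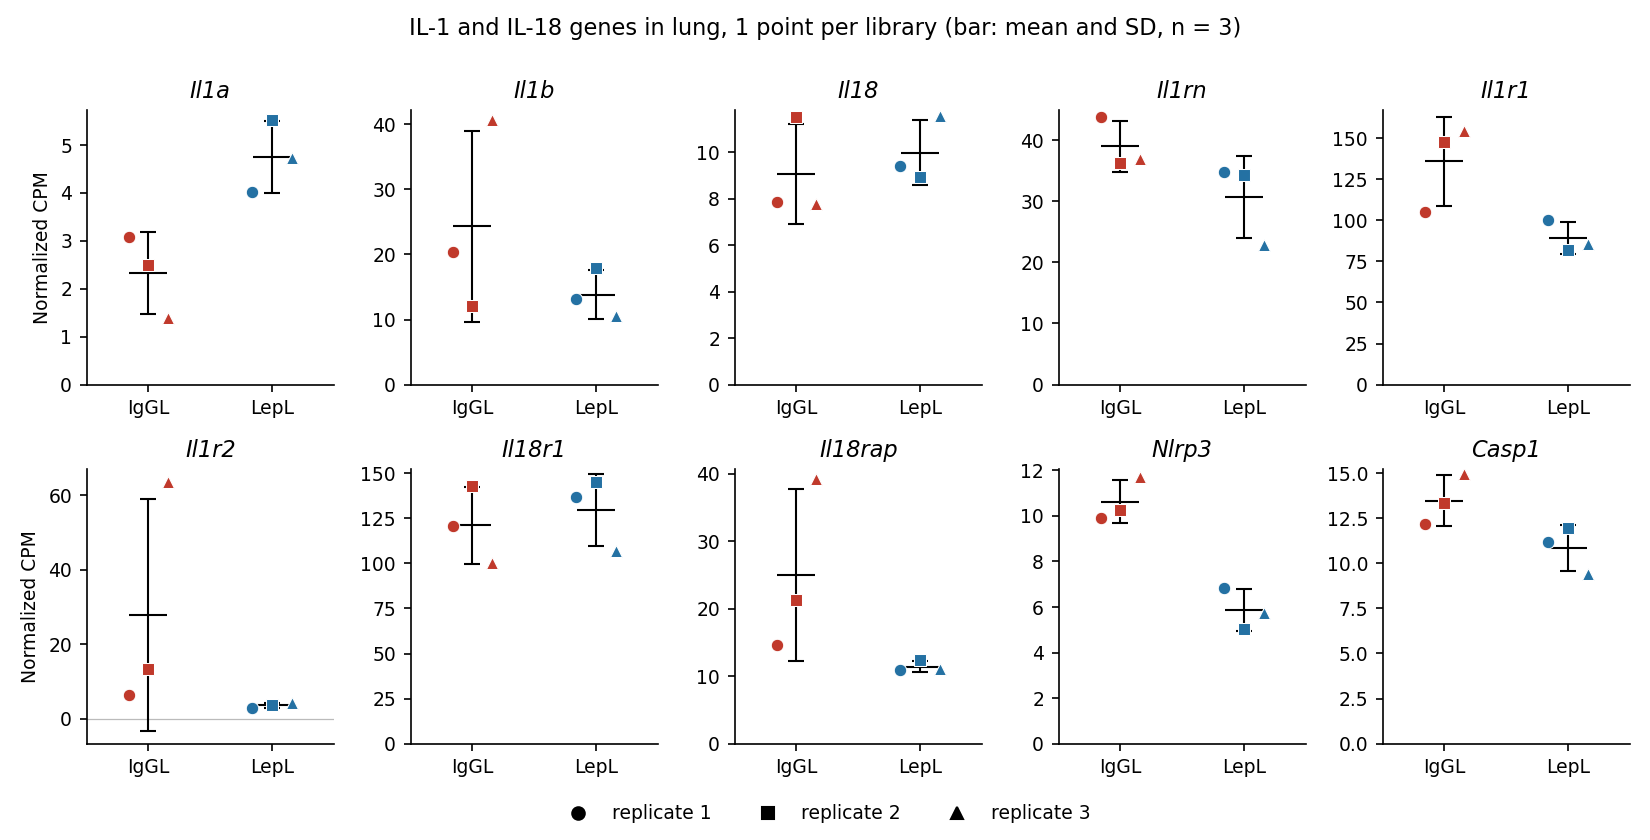
Normalized CPM of the 10 genes in bleomycin-injured lung (linear axis, 1 panel per gene), with 1 point per library and the mean and SD of 3 libraries per group. *Nlrp3* falls in LepL with no overlap, and IgGL replicate 3 carries the highest *Il1r2*, *Il18rap* and *Il1b* points at 63.6, 39.2 and 40.6 CPM.

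Neutrophils carry much *Il1r2* and *Il1b*, and the IgGL library with the highest values of both also had the highest neutrophil marker sum. That sum was 259 to 646 CPM in IgGL and 131 to 165 CPM in LepL, with no marker at 0 and 6 of 12 markers called lower in LepL. The macrophage sum was 4224 to 7032 CPM in IgGL and 8273 to 8567 CPM in LepL, most of it from *Lyz2*, which alveolar type 2 cells express too. Without *Lyz2*, the other 11 markers summed to 1707 to 2214 CPM in IgGL and 972 to 1414 CPM in LepL. T and NK cell markers summed to 27.96 to 65.8 CPM in IgGL and 64.0 to 104 CPM in LepL. Fibroblast markers summed to 7449.8 to 8570.4 CPM in IgGL and 3349 to 4610.3 CPM in LepL, with 5 of 8 called lower. The part of these cells in the lung values was not tested.

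The antibody effects of the organs were compared directly in 1 fit of the 12 libraries from injured organs, in which organ, injury and day differ together and cannot be told apart. Of the 10 genes, 1 was called, at an adjusted p under 0.05 alone, where 7.12% of 21488 genes were called (3.51% higher and 3.62% lower). At an unadjusted p under 0.05 the count was 4, against 25.4% of all genes. *Il18r1*, lower with LepAb in kidney and at 99.97 to 145 CPM in all lung libraries, gave -0.96 ± 0.27 for kidney minus lung (adjusted p = 0.0466). *Casp1* (-0.96 ± 0.30), *Il1rn* (-0.89 ± 0.26) and *Il1a* (-1.85 ± 0.58) had adjusted p = 0.0672, 0.0572 and 0.0689. *Il18rap* gave 0.00 ± 0.47 although its neighbour and partner *Il18r1* was called. The *Il18r1* call was lost in 10 of the 12 fits that left out 1 library (-0.77 to -1.09 over all 12).

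The 6 receptor genes of chromosome 1 can be read in their order along the chromosome. All but *Il1rl2* and *Il1rl1* are members already counted above. Each of these 6 was called higher in IgGK against WTK, where 21.7% of all genes were called higher. The values ran from 1.74 ± 0.15 (*Il1r1*) to 4.22 ± 0.67 (*Il1r2*), with *Il1rl2* at 2.79 ± 0.28 and *Il1rl1* at 3.33 ± 0.46. In LepK against IgGK all 6 fitted values were below 0 and 4 were called, where 5.99% of all genes were called lower. Among them was *Il1rl2* (-1.02 ± 0.25, adjusted p = 0.0144, lost without IgGK replicate 3), while *Il1rl1* gave -0.69 ± 0.39 (adjusted p = 0.248). With IgGK replicate 3 as the lone IgGK library the 4 were at -2.20 (*Il1r2*), -1.17 (*Il1rl2*), -0.92 (*Il18r1*) and -1.07 (*Il18rap*). In lung the values were less even, with *Il1rl2* at -0.60 ± 0.15 (adjusted p = 0.0584) and *Il1rl1* at 0.20 ± 0.22 (adjusted p = 0.594). Only 0.136 kb separates *Il1rl1* from *Il18r1*, so reads past the end of the former could be counted on the latter.

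**Figure D5:**
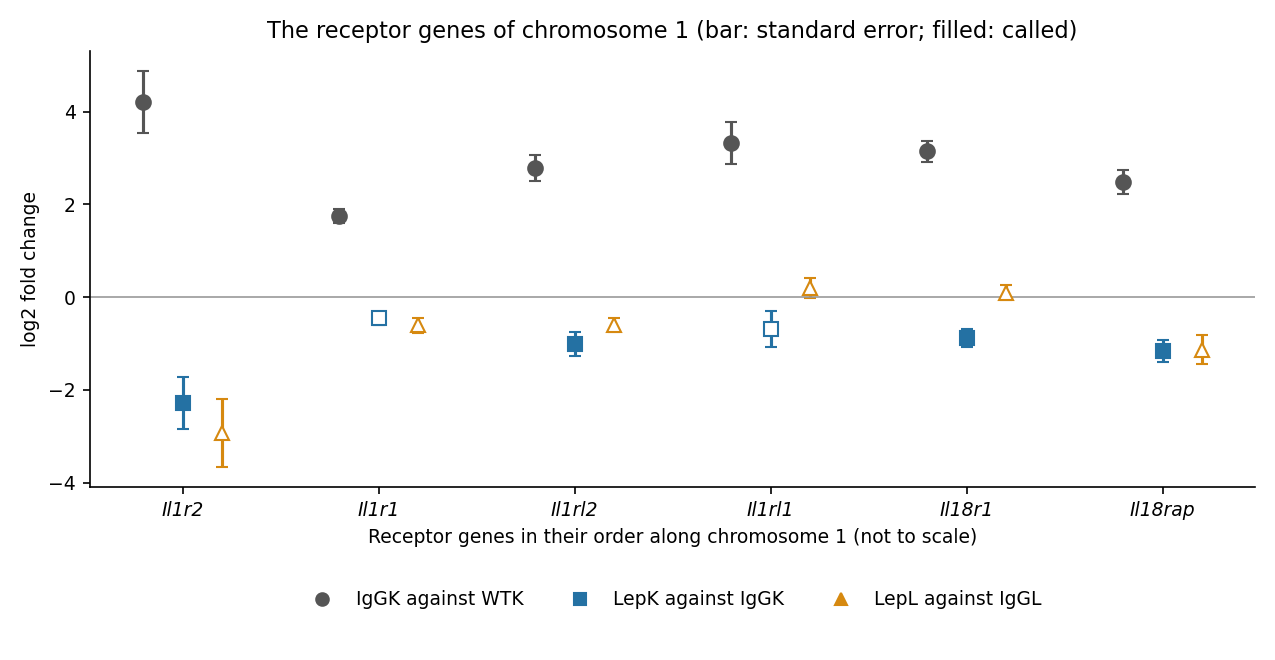
Fitted log2 fold change (points) and standard error (bars) of the 6 receptor genes in their order along chromosome 1, in 3 comparisons, with filled points called. All 6 lie above 0 in IgGK against WTK and below 0 in LepK against IgGK, and *Il1r2* has the lowest value of the 6 under LepAb in both organs.

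The wider pathway was described through 68 genes in 6 lists. In IgGK against WTK, 60 of them were tested, 38 were called higher and 4 lower (70.0%, against 37.3% of all genes), and the median of the 60 log2 differences was 1.37. In LepK against IgGK 1 was called higher and 16 lower (28.3%, against 10.4%, median -0.46). With IgGK replicate 3 as the lone IgGK library 1 was called higher and 3 lower of 63 tested, while 3.13% of all genes were called and the median was -0.40. In LepK against WTK 30 were called higher and 0 lower (50.0%, against 22.5%, median 0.93), and in lung 2 higher and 3 lower (8.33%, against 4.14%, median -0.18). Calls of named genes in LepK against IgGK that held with the lone library were those of *Il33*, *Lcn2* and *Nlrp6*, while *Casp4* (-0.98), *Gsdmd* (-0.51), *P2rx7* (-0.78), *Il1rl2* (-1.17), *Nlrp1b* (-1.02) and *Ccl2* (-0.85) lost theirs.

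Among other ligands, *Il33*, an alarmin kept in the nucleus, ran in opposite directions in the organs. It was at 21.3, 23.3 and 21.6 CPM in IgGK and 13.3, 12.9 and 12.2 CPM in LepK (-0.78 ± 0.10, adjusted p = 0.000428). In lung it was at 93.9, 36.9 and 38.7 CPM in IgGL and 191, 148 and 188 CPM in LepL (1.64 ± 0.33, adjusted p = 0.0391, a call kept in 1 of 6 fits without a library, that without IgGL replicate 1). The difference of the antibody effects was -2.39 ± 0.39 (adjusted p = 0.00878). Alveolar type 2 cells are a known source of IL-33 in mouse lung, and the sum of their 8 markers was 7442 to 13603 CPM in IgGL and 19482 to 26153 CPM in LepL, whose part was not tested. *Il36a*, an IL-36 cytokine gene of the cluster beside *Il1rn*, had 0 counts in every WTK library and 63, 120 and 69 in IgGK, at least 64.8-fold higher than a floor of 3 counts over the WTK group. *Il18bp*, the soluble inhibitor of IL-18, rose by 0.72 ± 0.21 in IgGK (adjusted p = 0.0103, lost without IgGK replicate 2 and with replicate 3 alone) and gave -0.33 ± 0.20 in LepK against IgGK (adjusted p = 0.291).

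Of the other receptor chains, the shared accessory chain *Il1rap* was not called in any comparison (-0.06 ± 0.16 in IgGK against WTK, adjusted p = 0.789). The inhibitory receptor *Sigirr* was lower by -0.84 ± 0.06 after injury (adjusted p = 2.91e-07, not called with total count scaling), and its LepK against IgGK value of 0.43 ± 0.06 (adjusted p = 0.000735) was under the fold threshold.

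Of 21 inflammasome sensors, adaptors, caspases and pore proteins, 14 were called higher and 3 lower in IgGK against WTK (21.7% and 15.6% of all genes), and 1 higher and 6 lower in LepK against IgGK (4.38% and 5.99%). *Casp4*, the caspase of the noncanonical inflammasome, rose by 3.48 ± 0.21 and was lower in LepK by -0.88 ± 0.18. *Gsdmd*, whose cleaved form makes the pore, rose by 2.13 ± 0.16 and was lower by -0.61 ± 0.15 (lost without IgGK replicate 2 or LepK replicate 1), and *P2rx7*, the ATP-gated channel upstream of NLRP3, rose by 2.48 ± 0.17 and was lower by -0.94 ± 0.16. *Panx1*, a membrane channel that releases ATP, rose by 2.72 ± 0.25, and *Naip1*, a sensor of bacterial proteins, by 3.11 ± 0.52. The adaptor *Pycard* rose by 1.41 ± 0.18, and its LepK against IgGK value of -0.37 ± 0.17 was not called (adjusted p = 0.156). *Nlrc4*, the partner of the NAIP sensors, was lower by -0.72 ± 0.21 (adjusted p = 0.0114, lost without WTK replicate 3 and with IgGK replicate 3 alone). *Nlrp6*, a sensor of epithelial cells, ran the other way, with -1.47 ± 0.13 after injury and 1.01 ± 0.13 in LepK against IgGK (adjusted p = 0.000481).

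Of the 13 genes of the signal chain behind the receptors, 5 were called higher in IgGK against WTK and 0 lower. Of all genes 21.7% were called higher and 15.6% lower. Counted in either direction, the 5 of 13 lay near the 37.3% of all genes. Among the 5 were the adaptor *Myd88* (1.002 ± 0.11), the NF-κB subunit gene *Nfkb1* (1.11 ± 0.10) and *Irak3*, an inhibitor of the chain (1.68 ± 0.31). In LepK against IgGK, edgeR called 0 of the 13, against 10.4% of all genes, and 3 had an unadjusted p under 0.05, against 32.9%. There *Myd88* (-0.33 ± 0.10, adjusted p = 0.0454) and *Nfkb1* (-0.44 ± 0.09, adjusted p = 0.00589) passed the adjusted threshold but not that of size.

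Genes known to respond to IL-1 were called higher in 12 of 14 tested in IgGK against WTK (21.7% of all genes) and lower in 8 of 14 in LepK against IgGK (5.99%). *Lcn2*, which binds bacterial siderophores and marks injured tubule, was at 114, 152 and 118 CPM in IgGK and 43.2, 52.0 and 54.5 CPM in LepK (-1.36 ± 0.15, adjusted p = 0.000176). *Ccl2*, a chemokine for monocytes, was lower by -0.74 ± 0.23 (adjusted p = 0.0391), a call kept in 1 of 6 fits without a library, that without LepK replicate 2. *Cxcl2*, a chemokine for neutrophils, rose by 6.91 ± 0.67 in IgGK, a size that rests on 4 WTK counts in 1 library and ran up to 10.66 when 1 library was left out, and gave -0.85 ± 0.40 in LepK against IgGK (adjusted p = 0.168). In lung, *Saa3*, an acute-phase gene, and *Ccl2* were called lower in LepL against IgGL, by -2.16 ± 0.48 and -1.85 ± 0.37 (adjusted p = 0.0444 and 0.0381, each kept in 1 of 6 fits without a library, that without IgGL replicate 1), while *Lcn2* gave 0.01 ± 0.22 (adjusted p = 0.983).

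Of the partners of IL-18 and IL-12, 4 of 6 were tested in kidney. Of these, 2 were called higher in IgGK against WTK, where 21.7% of all genes were called higher. The IL-12 receptor chain *Il12rb1* was among the 2 (1.18 ± 0.37, adjusted p = 0.0178, lost without IgGK replicate 3 or WTK replicate 3). In LepK against IgGK edgeR called 0 of the 4, against 10.4% of all genes. An unadjusted p under 0.05 was reached by 1 of the 4, against 32.9% of all genes, namely *Il12rb1* at -1.03 ± 0.37 (adjusted p = 0.0675).

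Among 13826 coding genes at a mean of at least 1 CPM in the 9 kidney libraries, those most like *Il1b* by Pearson correlation of log2 CPM were *Pola1*, *Dusp2*, *Plod2*, *Atad2* and *Aurkb* (r = 0.99 to 0.98). Those most like *Il18* were *Smim38*, *Cadm1*, *Prkdc*, *Ulk2* and *Uvssa* (r = 0.98 to 0.95). In the 6 lung libraries, *Tuba1a*, *Pkig*, *Entpd1*, *Gcfc2* and *Znrf3* were most like *Il1b* (r = 0.99 to 0.98), and *Hcfc2*, *Slc25a17*, *Lmbrd1*, *Rwdd3* and *Btg2* most like *Il18* (r = 0.99 to 0.97). These are descriptions over few libraries that share their groups, and the top of so many genes is high by selection.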

How the data were processed

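Poly(A)-selected, non-directional libraries from 9 kidneys and 6 lungs were analysed. The authors deposited raw read counts per gene and FPKM values (scaled by gene length and a factor of each library) in 1 table. Its aligner and counter are not given in the sources used here, and the submitters' processing notes name DESeq2 and GRCm39. The authors' own fold changes and p-values in it were not used. Libraries were grouped by their labels. A line in the sample descriptions naming a column disagreed with the sample titles and treatment labels, and the titles were used. Replicates of a group differed by more than sampling noise. Genes were filtered with filterByExpr (minimum count 10, total 15), scaled by TMM and tested with edgeR 4.0.16 (R 4.3.3, glmQLFit and glmQLFTest) in 3 fits: 9 kidney, 6 lung and 12 injured-organ libraries. DESeq2 1.42.0 and other scalings and filters were alternatives. The procedure was tested on simulated data. FPKM were compared within libraries only. The labels give nothing that pairs mice by replicate number. Named genes are the 10, 8 fixed partners or neighbours, and per list and comparison the 2 called genes of largest rise and fall at a mean of at least 1 CPM. The members and lists were chosen with earlier results of these data known.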

Additional observations from a re-analysis of the deposited data

Results flagged for a closer look

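The following differences between the antibody effect in kidney and that in lung passed the test of the difference itself (edgeR, adjusted p under 0.05). Each is given as kidney minus lung on the log2 scale. They were 1 of the 10 genes and, of 64 wider pathway genes tested, 2 higher and 5 lower (10.9%). Of all genes tested 7.12% were called. *Il18r1* gave -0.96, with -0.89 in kidney and 0.10 in lung. *Il33* gave -2.39, with -0.78 in kidney and 1.64 in lung. *Lcn2* gave -1.34, with -1.36 in kidney and 0.01 in lung. *Nlrp1b*, an inflammasome sensor, gave -1.23, with -0.84 and 0.42. *Serpinb1a*, an inhibitor of neutrophil proteases, gave -0.81, with -0.26 and 0.58. *Ninj1*, which ruptures the membrane of dying cells, gave 0.88, with 0.13 and -0.72. *Tab1*, a kinase adaptor, gave 0.45, with 0.09 and -0.33. *Il36a* gave -5.47, a fitted value that depends on IgGL counts of 2, 0 and 0 beside 4, 25 and 15 in LepL and is no bound. When 1 of the 12 libraries was left out, the calls of *Il33*, *Lcn2*, *Ninj1* and *Serpinb1a* held in 12 of 12 fits, that of *Il36a* in 9, of *Nlrp1b* in 4, of *Il18r1* in 2 and of *Tab1* in 1. With IgGK replicate 3 as the lone IgGK library 4 of 24096 genes were called in all and none of these 8, but the values stayed similar, for example -1.01 for *Il18r1*, -2.37 for *Il33* and -1.24 for *Lcn2*. Organ, injury and day cannot be told apart in these differences.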

How the results depend on the processing

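In kidney the members called were counted under the other scalings, filters, tools and left-out libraries. They were 8 to 10 for IgGK against WTK, 6 to 8 for LepK against IgGK and 7 to 9 for LepK against WTK. The shares of all genes called in those fits were 23.2% to 45.8%, 6.44% to 13.2% and 14.3% to 27.0%. The low of 8 came with the filter at a mean of 1 CPM, where *Il1a* and *Il1r2* were not tested and every member tested was called. Over these fits the member counts moved little. The exception, chosen after seeing the data, was IgGK replicate 3 as the lone IgGK library, with 9 calls in the first comparison and 0 in the second (7 at an unadjusted p under 0.05 in edgeR). Total count scaling moved the median of all genes to 0.48, -0.19, 0.29, 0.04 and -0.25 in the 5 comparisons, in the order of the difference plot. The lung count of 1 became 5 with DESeq2, 4 in a fit of all 15 libraries and 6 with no filter, which called 11.9%, 10.6% and 7.66% of all genes against 4.14%, and 0 with the replicate block (4 genes called in all), total count or upper-quartile scaling (3.38% and 3.82%), with 5 or 6 members at an unadjusted p under 0.05 in edgeR. It ranged from 0 to 5 when 1 library was left out, with 5 without IgGL replicate 1, where 17.3% of all genes were called, and 0 without any other, where 0 to 22 genes were called in all, so that those fits say nothing of the members alone. The kidney minus lung count of 1 became 4 with DESeq2, no filter or total count scaling, 3 with a mean of at least 1 CPM, 2 with the replicate block and 0 with the lone IgGK library (4 at an unadjusted p under 0.05, and 4 genes called in all), and ranged from 0 to 3 without 1 library. In this comparison the main fit called 7.12% of all genes. The share was 13.6% with DESeq2, 7.12% with no filter and 10.3% with total count scaling. It was 10.2% with a mean of at least 1 CPM and 5.85% with the replicate block. Without 1 library it ran from 1.58% to 16.9%. Values that changed sign were small or uncertain. *Il18r1* in lung ran from -0.026 to 0.23 without 1 library. For kidney minus lung, *Il1r1* was -0.064 with total count scaling, *Il1r2* ran from -0.85 to 1.13 without 1 library, and *Il18rap* was -0.048 with a mean of at least 1 CPM, -0.016 with no filter, -0.10 with the replicate block, -0.26 with total count and -0.062 with upper-quartile scaling, and -0.50 to 0.28 without 1 library. The labels give nothing that pairs mice by replicate number. Deviations of same-numbered IgGK and LepK libraries correlated at 0.18, 0.17 and -0.03. Differently numbered libraries were not compared, so these values cannot decide whether mice were paired. The replicate block left the kidney counts at 10, 7 and 8, where 36.9%, 10.8% and 22.5% of all genes were called. A filter at a mean of 1 CPM removes *Il1a* and *Il1r2* in kidney, whose WTK counts limit the size of their rise. The causes of these shifts were not tested.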
